A study of Homo sapiens with 18 samples.

Results

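This account covers 7 genes of the switch from a B cell to an antibody-secreting plasma cell, out of 60707 genes read: the transcription factors PRDM1 (also called BLIMP1) and IRF4, the secretion genes JCHAIN and MZB1, and the surface receptors CD38, SDC1 (CD138) and TNFRSF17 (BCMA). They were chosen by name, as the rows of the deposited gene count table that carry these symbols, and each matched 1 row. RNA was sequenced from Raji, an established B cell line from a Burkitt lymphoma. The study addressed SMARCA4, an ATPase of the BAF chromatin remodelling complex, through a degron that lets auxin trigger removal of the protein. The 6 groups were GFP low cells at 24, 48 and 72 h and GFP high cells at 24, 48 and 72 h, with 3 libraries each and 18 in all. All 6 carry the genotype label Smarca4+/+ and come from the same cell line. Column names of the unnumbered library set join GFP to BRG1, another name of SMARCA4. Beyond this, what GFP reports and how the low and high cells were gated is stated in none of the sources. Nor do they state whether auxin was given to each group and from when the hours count. It is not stated either whether replicate libraries are separate cultures, and the p-values therefore cover library-to-library spread only, possibly technical spread.

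In a germinal centre B cell, BCL6, PAX5 and BACH2 hold the B cell programme in place and keep PRDM1 silent. When the cell differentiates, IRF4 rises, activates PRDM1 and, with it, ends BCL6 expression. PRDM1 is a zinc finger repressor that shuts off B cell genes such as PAX5, CIITA and MYC, and with XBP1 opens the secretory pathway in which MZB1 and the joining chain JCHAIN serve antibody assembly. CD38, SDC1 and TNFRSF17 mark the surface of plasma cells, although CD38 is also found on germinal centre B cells.

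Libraries held 27257876 to 55419458 counts in genes. Mitochondrial genes took 3.48% to 3.64% of them in GFP low against 4.27% to 4.62% in GFP high libraries at 24 h, 2.87% to 2.95% against 3.63% to 3.78% at 48 h, and 3.81% to 3.98% against 2.67% to 2.79% at 72 h. These shares did not overlap at any time, and their part in the members' results was not tested. The mRNA of SMARCA4 was present in every library and was higher in GFP low cells, at 589.6, 482.1 and 473.7 CPM at 24, 48 and 72 h, against 418.3, 445.8 and 411.2 CPM in GFP high cells. CPM here are counts normalised to library size with TMM factors. A degron acts on protein, so this mRNA is no check of the label. The 3 GFP low libraries at 24 h lay apart from the other 15 along the leading axis of a principal component analysis, which took 30.0% of the variance. All 7 B cell markers averaged over 1 CPM in every group, with a summed level of 3648 to 4678 CPM across libraries, so the libraries carry B cell RNA as labelled. Of these 7 markers, 5, 4 and 4 were lower and 1 was higher in GFP low cells at 24, 48 and 72 h. Among all tested genes 28.5%, 13.2% and 13.5% were lower and 29.3%, 10.6% and 12.9% higher. In bulk RNA, fewer cells of a type and less RNA per cell cannot be told apart.

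On the hg38 build and in the deposited table's coordinates, PRDM1 (ENSG00000057657.17) lies at chr6:105993463-106109939 on the plus strand, with exons that sum to 6750 bases. IRF4 (ENSG00000137265.15) lies on the same chromosome, at chr6:391752-411443 on the plus strand. JCHAIN (ENSG00000132465.12) lies at chr4:70655541-70681817 on the minus strand and CD38 (ENSG00000004468.13) at chr4:15778275-15853232 on the plus strand. SDC1 (ENSG00000115884.11) lies at chr2:20200797-20225433 on the minus strand, MZB1 (ENSG00000170476.16) at chr5:139387467-139390081 on the minus strand and TNFRSF17 (ENSG00000048462.11) at chr16:11965210-11968068 on the plus strand. JCHAIN was the only member whose exons overlap those of another gene in the table. The antisense gene ENSG00000286848 shares 87 bases with it and held 1142 counts over all libraries, against 499353 for JCHAIN, and whether counting used strand is not stated.

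The promoters of PRDM1, IRF4 and JCHAIN are shown because the results turn on the time course of these 3 genes at the 2 GFP levels. Each window runs from 250 bases before to 50 bases after a RefSeq start (GRCh38.p14). RefSeq windows were found for 6 of the 7 members, 8 windows in all, and the pair for PRDM1 reflects its upstream and downstream starts. Capitals mark matches, on either strand, to AP-1 (TGANTCA), the CRE core (TGACGT), NF-kB (GGGA and CC with 4 bases between), an IRF pair (GAAA and GAAA with 2 bases between) or an ETS-IRF composite (GGAA and GAAA with 2 bases between).
PRDM1 upstream start, chr6:106086086-106086385, plus strand: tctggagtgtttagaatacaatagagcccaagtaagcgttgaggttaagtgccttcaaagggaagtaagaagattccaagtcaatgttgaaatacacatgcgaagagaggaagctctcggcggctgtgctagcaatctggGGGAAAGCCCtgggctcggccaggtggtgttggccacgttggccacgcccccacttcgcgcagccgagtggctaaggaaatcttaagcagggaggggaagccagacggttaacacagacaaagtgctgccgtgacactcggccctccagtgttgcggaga
PRDM1 downstream start, chr6:106098691-106098990, plus strand: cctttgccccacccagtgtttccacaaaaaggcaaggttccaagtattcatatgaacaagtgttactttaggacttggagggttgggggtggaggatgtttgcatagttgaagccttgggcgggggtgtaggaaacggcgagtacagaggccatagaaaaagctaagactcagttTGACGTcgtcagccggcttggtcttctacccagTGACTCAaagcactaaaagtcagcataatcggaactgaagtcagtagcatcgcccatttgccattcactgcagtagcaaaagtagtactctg
IRF4, chr6:391502-391801, plus strand: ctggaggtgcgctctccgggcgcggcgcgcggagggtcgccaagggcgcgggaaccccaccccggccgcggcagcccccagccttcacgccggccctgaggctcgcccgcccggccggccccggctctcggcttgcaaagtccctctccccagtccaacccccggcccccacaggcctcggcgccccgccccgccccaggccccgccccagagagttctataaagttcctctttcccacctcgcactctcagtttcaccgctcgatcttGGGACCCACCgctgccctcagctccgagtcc
JCHAIN, chr4:70666459-70666758, minus strand: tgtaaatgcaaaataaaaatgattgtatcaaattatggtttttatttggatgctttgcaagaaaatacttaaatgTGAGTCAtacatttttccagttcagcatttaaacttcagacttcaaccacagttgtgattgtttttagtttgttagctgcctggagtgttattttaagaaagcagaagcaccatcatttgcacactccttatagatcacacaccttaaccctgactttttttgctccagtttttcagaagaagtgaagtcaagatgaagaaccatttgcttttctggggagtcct
The downstream PRDM1 window holds an AP-1 match whose first base is at position -42 from the start and a CRE core match at -75. The upstream PRDM1 window holds an NF-kB match at -110, IRF4 has one at 20, and JCHAIN has an AP-1 match at -175. Among the windows not printed, CD38 has an ETS-IRF match at -43 and SDC1 an NF-kB match at -227. No member window holds an IRF pair or the octamer ATTTGCAT. The E-box CANNTG, not capitalised, occurs in windows of PRDM1, JCHAIN, CD38, SDC1 and MZB1. Of 35116 RefSeq windows of this length, 7.71% hold AP-1, 7.98% the CRE core, 25.6% NF-kB, 3.57% the IRF pair, 2.82% the ETS-IRF composite, 1.77% the octamer and 68.7% the E-box. These matches describe the letters only.

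The members spanned several orders of magnitude in TPM, a level per exon length that is used here to compare genes. JCHAIN averaged 1765 TPM over the 18 libraries and MZB1 213.8 TPM. PRDM1 averaged 26.9 TPM and CD38 20.5 TPM, while TNFRSF17 averaged 3.84 TPM and IRF4 1.67 TPM. SDC1 was at the detection limit. Thus Raji cells of every group held abundant joining chain mRNA together with a low level of IRF4 and next to none of SDC1.

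**Figure D1:**
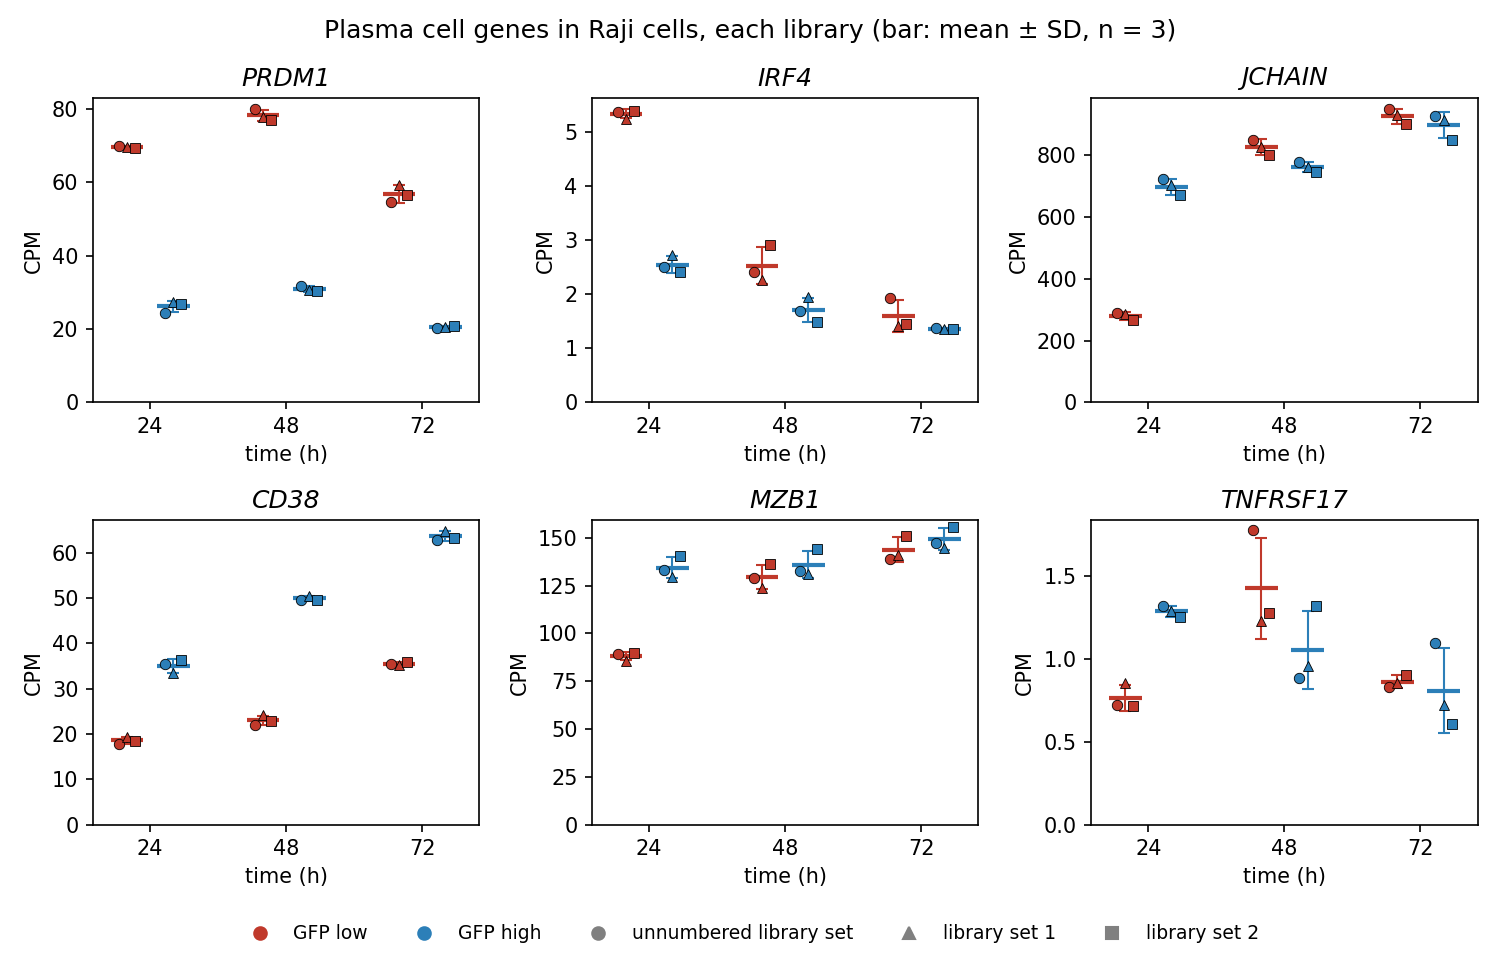
TMM-scaled CPM (vertical axes, each from 0) of 6 plasma cell genes in every library against time in hours, with GFP low in red left of GFP high in blue. Marker shapes give the library set and the bars the mean ± SD of 3 libraries. PRDM1 is higher in GFP low cells at each time, CD38 lower at each time, and JCHAIN differs most at 24 h, where GFP low cells average 280.0 CPM.

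GFP low cells differed from GFP high cells in 6 of the 6 members tested at 24 h, 4 of 6 at 48 h and 2 of 6 at 72 h. A gene was called at an adjusted p under 0.05 in edgeR's quasi-likelihood test, 2-sided, over 16474 genes. At 24 h, PRDM1 and IRF4 were higher and JCHAIN, CD38, MZB1 and TNFRSF17 lower, and 57.9% of all tested genes were called, 29.3% higher and 28.5% lower. At 48 h, PRDM1, IRF4 and JCHAIN were higher and CD38 lower, against 23.8% of genes called, 10.6% higher and 13.2% lower. At 72 h, PRDM1 was higher and CD38 lower, against 26.4% of genes called, 12.9% higher and 13.5% lower. With the library set as a replicate block, MZB1 was also called lower at 48 and 72 h, and JCHAIN higher at 72 h. The median log2 fold change of the tested members, GFP low over GFP high, was -0.68, 0.26 and 0.09 at 24, 48 and 72 h, where that of all tested genes was 0.03, -0.01 and 0.00. The 2 transcription factors and the 4 genes of the secretory and surface programme thus went opposite ways at 24 h.

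PRDM1, the repressor at the head of the plasma cell programme, was higher in GFP low than in GFP high cells throughout and by nearly the same ratio. At 24 h it had 70.0, 69.5 and 69.4 CPM in GFP low libraries, against 24.5, 27.3 and 26.8 CPM in GFP high libraries. At 48 h it had 80.0, 77.9 and 77.0 CPM in GFP low libraries, against 31.9, 30.5 and 30.3 CPM in GFP high libraries. At 72 h it had 54.6, 59.4 and 56.5 CPM in GFP low libraries, against 20.2, 20.5 and 20.8 CPM in GFP high libraries. The lowest GFP low library of any time lay above the highest GFP high library of any time. The log2 fold changes were 1.41 ± 0.04, 1.34 ± 0.04 and 1.47 ± 0.04 (SE) at 24, 48 and 72 h, which are 2.65-fold, 2.54-fold and 2.77-fold, with adjusted p of 8.4e-18, 3.1e-16 and 1.1e-16. Few genes moved as far: 2.07%, 0.868% and 0.656% of tested genes had an absolute log2 fold change at least as large at 24, 48 and 72 h. The edgeR test did not show a change of this difference with time. The log2 difference between the fold changes was -0.06 for 48 against 24 h (95% interval -0.18 to 0.06), 0.12 for 72 against 48 h (0.00 to 0.25, adjusted p 0.19) and 0.06 for 72 against 24 h (-0.06 to 0.18). The last of these passed the test with exon length and GC trends removed (0.15, adjusted p 0.028) and with the length trend removed within the library set block (0.14, adjusted p 0.021).

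The level of PRDM1 itself followed the same course in both kinds of cells, with its peak at 48 h. In GFP low cells it was 1.12-fold higher at 48 h than at 24 h (log2 0.17 ± 0.03, adjusted p 0.00028) and 1.38-fold lower at 72 h than at 48 h (log2 -0.46 ± 0.04, adjusted p 1.8e-09). In GFP high cells the corresponding log2 changes were 0.23 ± 0.04 (adjusted p 0.00035) and -0.59 ± 0.04 (adjusted p 1.5e-09). Its 72 h level was below that at 24 h in GFP low cells (log2 -0.29 ± 0.04, adjusted p 3.3e-07) and in GFP high cells (log2 -0.36 ± 0.04, adjusted p 1.7e-06). The 6 groups ranked GFP low at 48, 24 and 72 h, then GFP high at 48, 24 and 72 h, and no neighbours in this order overlapped.

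**Figure D2:**
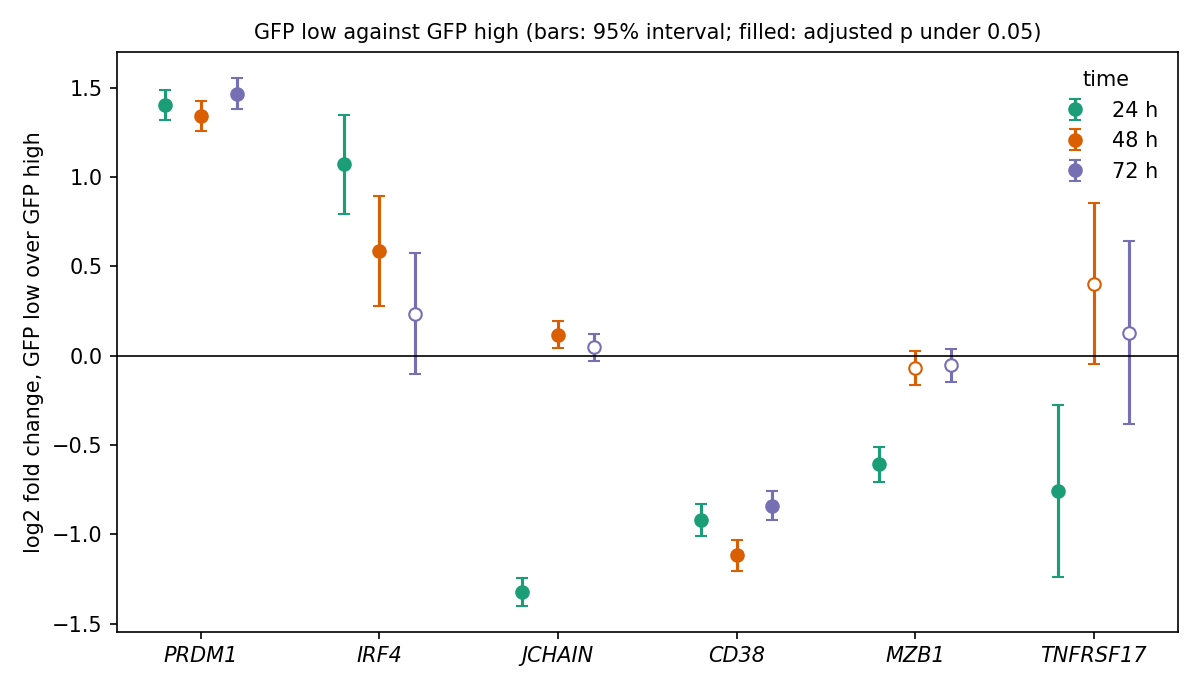
Log2 fold change of GFP low over GFP high (vertical axis) for 6 plasma cell genes at 24, 48 and 72 h, with 95% intervals as bars and filled points for an adjusted p under 0.05. PRDM1 lies between 1.34 and 1.47 at the 3 times, IRF4 is smaller at each later time, and JCHAIN goes from -1.32 at 24 h to 0.12 at 48 h.

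IRF4, the factor that starts the switch and activates PRDM1, was higher in GFP low cells at 24 and 48 h, and the difference was smaller at 72 h than at 24 h. At 24 h it had 5.38, 5.25 and 5.40 CPM in GFP low libraries, against 2.51, 2.73 and 2.41 CPM in GFP high libraries, which is 2.10-fold (log2 1.07 ± 0.13, adjusted p 2.3e-07). At 48 h it had 2.41, 2.26 and 2.92 CPM in GFP low libraries, against 1.70, 1.95 and 1.49 CPM in GFP high libraries, a log2 fold change of 0.59 ± 0.14 (adjusted p 0.0038). At 72 h it had 1.94, 1.42 and 1.45 CPM in GFP low libraries, against 1.37, 1.36 and 1.35 CPM in GFP high libraries. The groups did not overlap at any time, but the 72 h difference did not pass the test (log2 0.24 ± 0.16, 95% interval -0.10 to 0.57, adjusted p 0.30). These levels rest on 38 to 263 counts per library. The 48 h call did not pass without the second numbered library set (log2 0.37, adjusted p 0.17). The log2 fold change was smaller at 72 h than at 24 h by a test of the difference itself (-0.84 ± 0.20, adjusted p 0.0019), where 41.8% of tested genes were called. The difference between 48 and 24 h was -0.48 ± 0.19 (adjusted p 0.045, 43.5% of genes called), and in 12 of 18 refits with 1 library left out this call was lost. Between 72 and 48 h it was -0.35 and was not called.

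IRF4 was highest at 24 h in both kinds of cells, whereas PRDM1 was highest at 48 h. In GFP low cells it was 2.10-fold lower at 48 h than at 24 h (log2 -1.07 ± 0.13, adjusted p 2.3e-07) and 1.59-fold lower again at 72 h than at 48 h (log2 -0.67 ± 0.14, adjusted p 0.0013). The latter call was lost without library set 2 (log2 -0.47, adjusted p 0.072). In GFP high cells IRF4 was lower at 48 h than at 24 h (log2 -0.58 ± 0.14, adjusted p 0.0054), while the change to 72 h did not pass the test (log2 -0.32 ± 0.15, adjusted p 0.14). The 48 h call in GFP high cells was lost without the unnumbered set (adjusted p 0.054) or set 2 (adjusted p 0.055). GFP low cells at 24 h, at 5.34 ± 0.08 CPM (SD, n = 3), stood above all other groups. The next in order, GFP high at 24 h with 2.55 CPM and GFP low at 48 h with 2.53 CPM, overlapped.

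Of the genes known to regulate PRDM1, 18 of 20 could be tested, and some were called in each direction. In GFP low cells 7 were higher and 5 lower at 24 h, where 29.3% of all tested genes were higher and 28.5% lower. At 48 h 3 were higher and 5 lower (10.6% and 13.2% of all genes), and at 72 h 5 were higher and 6 lower (12.9% and 13.5%). The 24 h shares are near those of all genes. With the library set as a replicate block, 9 in place of 5 were lower at 48 h. Their median log2 fold change was 0.09, -0.10 and -0.01 at the 3 times. STAT3, an activator of PRDM1 downstream of interleukin receptors, was higher at 24 h (64.5 CPM in GFP low against 48.1 CPM in GFP high, log2 0.42) and at 48 h (log2 0.17), but not called at 72 h (log2 -0.02, adjusted p 0.78). The E protein genes TCF4 (log2 0.32 at 24 h) and TCF3 (log2 0.21 at 48 h and 0.32 at 72 h) were higher in GFP low cells. REL, a subunit of NF-kB, was higher at 24 h (log2 0.36) and lower at 48 h (log2 -0.20) and 72 h (log2 -0.19), and NFKB1, another subunit, was lower at 48 h (log2 -0.19) and 72 h (log2 -0.24). ETS1, which in mouse B cells restrains PRDM1, was higher at all 3 times (log2 0.22, 0.26 and 0.22). The AP-1 genes BATF (log2 -0.47) and JUND (log2 -0.43) were lower at 24 h. At 48 h JUND was again lower (log2 -0.36), while BATF was not called (log2 0.12). BCL6, the repressor of PRDM1 in germinal centre cells, was higher in GFP low cells at 24 h (314 against 284 CPM, log2 0.14) and at 72 h (415 against 324 CPM, log2 0.36). BACH2, another repressor of PRDM1, named here after its values were seen, was lower at 24 h (5.52 CPM in GFP low against 8.88 CPM in GFP high, log2 -0.67, adjusted p 0.00085) and was not called later, with an adjusted p of 0.12 at 48 h and of 0.19 at 72 h.

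The genes that PRDM1 is known to repress were called in both directions in the GFP low cells, where PRDM1 was higher. Of 12 tested, 7 were higher and 4 lower at 24 h, 3 higher and 4 lower at 48 h, and 5 higher and 4 lower at 72 h, where 57.9%, 23.8% and 26.4% of all tested genes were called at the 3 times. By direction, 29.3%, 10.6% and 12.9% of all tested genes were higher and 28.5%, 13.2% and 13.5% lower. The library set block gave 7 lower at 48 h. The median log2 fold change was 0.13, -0.06 and 0.02. CIITA, the switch for MHC class II genes, was higher at 24 h (280.0 CPM in GFP low against 226 CPM in GFP high, log2 0.31) but lower at 48 h (log2 -0.18) and at 72 h (log2 -0.23). The chemokine receptor gene CXCR5 (log2 0.60) and the octamer factor gene POU2F2 (log2 0.46) were higher at 24 h. MYC was higher at all 3 times (log2 0.11, 0.15 and 0.24). ID3, an inhibitor of E proteins, was not called at 24 h (10.8 against 10.5 CPM) but was higher at 48 h (27.3 CPM in GFP low against 14.2 CPM in GFP high, log2 0.94) and at 72 h (32.0 against 16.8 CPM, log2 0.93). Lower at 3 of 3 times were CD22, an inhibitory coreceptor (log2 -0.25, -0.40 and -0.33), IRF8 (log2 -0.51, -0.23 and -0.18) and SPIB, an ETS factor (log2 -0.20, -0.30 and -0.40). BCL6, PAX5, SPIB and IRF8 belong to this list and to the previous one.

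Among the 9 genes of the IRF family, 8 could be tested, IRF4 included. In GFP low cells 4 were higher and 1 lower at 24 and at 48 h, and 1 was higher and 2 lower at 72 h. Of all tested genes 29.3%, 10.6% and 12.9% were higher and 28.5%, 13.2% and 13.5% lower at the 3 times. IRF9, a partner of STAT proteins in interferon signalling, was higher at 24 h (3.58 CPM in GFP low against 1.88 CPM in GFP high, log2 0.94, adjusted p 0.00019). IRF1 was higher at all 3 times (log2 0.28, 0.19 and 0.16). IRF2 was higher at 48 h (log2 0.21) and lower at 72 h (log2 -0.21). IRF8, which in germinal centre B cells supports BCL6, was the lower one at 24 h (107 against 153 CPM), so IRF4 and IRF8 differed in opposite directions at 24 and 48 h.

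**Figure D3:**
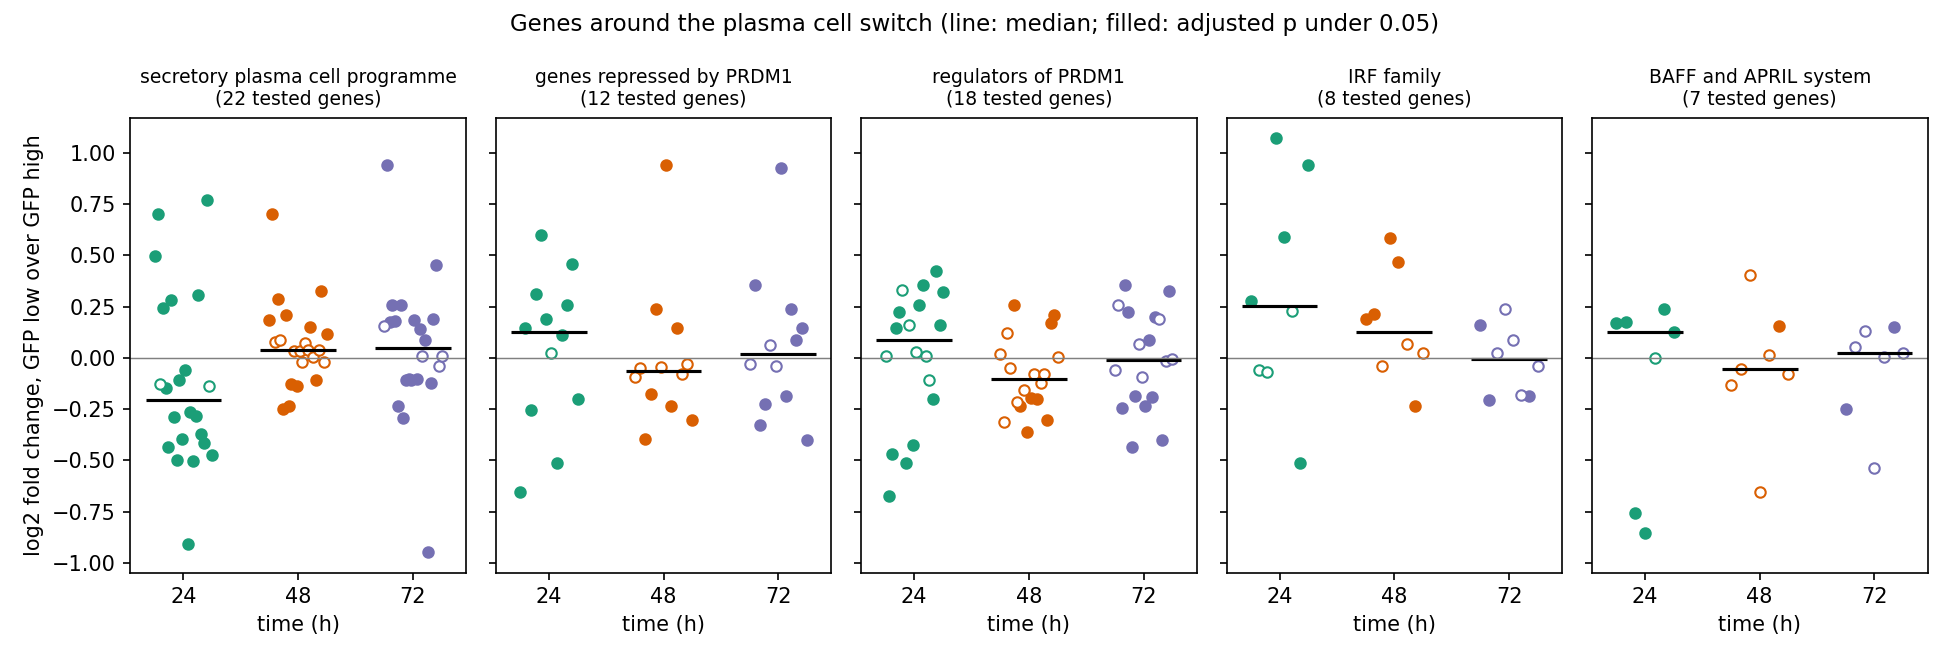
Log2 fold change of GFP low over GFP high (vertical axis) at 24, 48 and 72 h for the tested genes of 5 lists, 1 point a gene, with the median as a line and filled points for an adjusted p under 0.05. The secretory list has its median at -0.21 at 24 h and at 0.04 and 0.05 later, while the genes repressed by PRDM1 spread to both sides at each time.

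JCHAIN, whose product joins the units of polymeric IgM and IgA, was lower in GFP low cells at 24 h and close to GFP high cells later. At 24 h it had 288, 286 and 266 CPM in GFP low libraries, against 723, 703 and 671 CPM in GFP high libraries, which is 2.50-fold lower (log2 -1.32 ± 0.04, adjusted p 7.0e-18). Over 29 alternatives of processing this log2 fold change ran from -1.35 to -1.12, and the call held in all 29. At 48 h it had 851, 828 and 802 CPM in GFP low libraries, against 778, 763 and 746 CPM in GFP high libraries. That is a gap of 1.08-fold the other way (log2 0.12 ± 0.03, adjusted p 0.016), and the call was lost in 2 of 18 refits with 1 library left out, without the unnumbered GFP low library (adjusted p 0.084) or GFP high library 2 (adjusted p 0.070). It was also lost without the whole unnumbered set (adjusted p 0.094) or set 1 (adjusted p 0.13) and with the length trend removed (log2 0.09, adjusted p 0.057). At 72 h it had 950.4, 930.0 and 901 CPM in GFP low libraries, against 928, 915 and 849.6 CPM in GFP high libraries, which overlap (log2 0.05 ± 0.03, 95% interval -0.03 to 0.12, adjusted p 0.35). Blocking on library set let this difference of 0.05 pass the test (adjusted p 5.5e-07). The log2 fold change moved by 1.44 ± 0.05 between 24 and 48 h (adjusted p 1.9e-15) and by 1.37 ± 0.05 between 24 and 72 h (adjusted p 2.4e-15). It moved by -0.07 ± 0.05 between 48 and 72 h (adjusted p 0.44, 9.02% of genes called). When blocked on set the adjusted p was 0.0089, where 3331 genes were called against 1486 without the block.

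Most of that movement lay in the GFP low cells. Within them JCHAIN was 2.96-fold higher at 48 h than at 24 h (log2 1.56 ± 0.04), where 50.8% of tested genes were called, against 1.09-fold in GFP high cells (log2 0.13 ± 0.03), where 20.6% were called. From 48 to 72 h it was 1.12-fold higher in GFP low cells (26.4% of genes called) and 1.18-fold higher in GFP high cells (27.8% called). GFP low cells at 24 h thus held the lowest level, with the other 5 groups between 699.2 and 927.3 CPM.

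MZB1, a chaperone of the endoplasmic reticulum that helps IgM assembly and secretion, was likewise lowest in GFP low cells at 24 h. At 24 h it had 89.1, 85.7 and 90.0 CPM in GFP low libraries, against 133, 129.6 and 140.5 CPM in GFP high libraries, which is 1.52-fold lower (log2 -0.61 ± 0.04, adjusted p 9.6e-11). Under the 29 alternatives the call held, with a log2 fold change of -0.63 to -0.48. At 48 h it had 129, 124 and 136 CPM in GFP low libraries, against 133, 131 and 144 CPM in GFP high libraries (log2 -0.07 ± 0.04, adjusted p 0.28). At 72 h it had 139, 141 and 151 CPM in GFP low libraries, against 147, 145 and 156 CPM in GFP high libraries (log2 -0.05 ± 0.04, adjusted p 0.40). The groups overlap at 48 and 72 h, yet in each library set the GFP low library was below its GFP high partner. With the set as a block the same log2 fold changes passed the test, at adjusted p of 0.0061 and 0.036. The change of the fold change from 24 to 48 h was 0.54 ± 0.06 (adjusted p 2.7e-07) and from 24 to 72 h 0.55 ± 0.06 (adjusted p 2.0e-07). In GFP low cells MZB1 was 1.47-fold higher at 48 h than at 24 h, while in GFP high cells that change was 1.01-fold and did not pass the test (log2 0.02, adjusted p 0.83). It passed with length and GC trends removed (log2 0.07, adjusted p 0.020) and with the length trend removed within the block (log2 0.05, adjusted p 0.045).

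In the wider secretory programme of plasma cells, most genes were called lower at 24 h in the GFP low cells, as JCHAIN and MZB1 were. Of 22 tested of 24, 14 were lower and 6 higher at 24 h, with a median log2 fold change of -0.21, where 28.5% of all tested genes were lower and 29.3% higher. At 48 h 5 were lower and 7 higher (median 0.04), against 13.2% and 10.6% of all genes. At 72 h 8 were lower and 10 higher (median 0.05), where DESeq2 called 7 higher, against 13.5% and 12.9% of all genes. XBP1, the factor that expands the secretory pathway, was lower at 24 h (79.7 CPM in GFP low against 111 CPM in GFP high, log2 -0.47), slightly higher at 48 h (log2 0.12) and not called at 72 h (log2 0.01, adjusted p 0.87). PRDX4, a peroxiredoxin of the endoplasmic reticulum, had the largest fall at 24 h of this list (33.7 against 63.3 CPM, log2 -0.91). HSPA5, the chaperone BiP, was lower at all 3 times (log2 -0.29, -0.24 and -0.30), as was HERPUD1, a protein of degradation from the endoplasmic reticulum (log2 -0.43, -0.25 and -0.24). Other genes went the other way. The degradation factors DERL3 (log2 0.70, 0.70 and 0.94) and EDEM1 (log2 0.25, 0.29 and 0.26), the chaperone HSP90B1 (log2 0.28, 0.21 and 0.26) and TRAM2 (log2 0.77, 0.33 and 0.45) were higher at all 3 times. SLAMF7, a surface receptor of plasma cells, was higher at 24 h (log2 0.31) and lower at 72 h (6.15 CPM in GFP low against 11.96 CPM in GFP high, log2 -0.95).

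CD38, an enzyme at the cell surface that consumes NAD, was lower in GFP low cells at every time, opposite to PRDM1. At 24 h it had 17.9, 19.3 and 18.5 CPM in GFP low libraries, against 35.5, 33.4 and 36.3 CPM in GFP high libraries. At 48 h it had 22.0, 24.1 and 23.0 CPM in GFP low libraries, against 49.6, 50.5 and 49.6 CPM in GFP high libraries. At 72 h it had 35.5, 35.2 and 35.9 CPM in GFP low libraries, against 62.8, 64.8 and 63.3 CPM in GFP high libraries. At no time did the groups overlap. CD38 was 1.89-fold, 2.17-fold and 1.79-fold lower at 24, 48 and 72 h (log2 -0.92 ± 0.04, -1.12 ± 0.04 and -0.84 ± 0.04, with adjusted p of 3.0e-14, 7.8e-15 and 3.0e-13). The difference was larger at 48 h than at 24 h (-0.20 ± 0.06, adjusted p 0.0076) and smaller at 72 h than at 48 h (0.28 ± 0.05, adjusted p 0.0019). The first of these calls held under 24 of 29 alternatives and was lost once a trend with exon length was removed (-0.10, adjusted p 0.21). It was also lost with no filter on low counts (-0.17, adjusted p 0.062) and without set 1 (-0.16, adjusted p 0.087). The second call was lost without the unnumbered library set (0.24, adjusted p 0.10). The change from 24 to 72 h was not called (0.08 ± 0.06, adjusted p 0.27), but it was with the length trend removed (0.17, adjusted p 0.026), with length and GC trends removed (0.15, adjusted p 0.039) and with the length trend removed within the block (0.17, adjusted p 0.0050).

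CD38 rose with time in both kinds of cells. From 24 to 72 h it was 1.92-fold higher in GFP low cells (log2 0.94 ± 0.04, 57.1% of genes called) and 1.81-fold higher in GFP high cells (log2 0.86 ± 0.04, 28.9% called). GFP low cells at 72 h, with 35.5 CPM, overlapped GFP high cells at 24 h, with 35.0 CPM. Among the other genes of NAD use, NAMPT (log2 -0.19) and SARM1 (log2 -0.19) were lower and ENPP1 was higher (log2 0.20) at 24 h. Of the 4 tested of 6 genes, CD38 included, 3, 3 and 2 were lower at 24, 48 and 72 h. Lower at these times were 28.5%, 13.2% and 13.5% of all tested genes.

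Because CD38 is also found on T cells and myeloid cells, their markers are given here. The T cell markers, 4 of 7 of them over 1 CPM on average in every group, summed to 22.8 to 25.8 CPM in GFP low libraries against 44.0 to 46.8 CPM in GFP high libraries at 24 h. At 48 h they summed to 36.1 to 39.7 CPM in GFP low libraries against 41.6 to 44.8 CPM in GFP high libraries, and at 72 h to 37.4 to 40.5 CPM against 51.3 to 53.6 CPM. Of 6 tested, 5, 2 and 5 were lower in GFP low cells at 24, 48 and 72 h, against 28.5%, 13.2% and 13.5% of all tested genes. Most of the sum came from TRBC2 and LCK, and CD2 had 1 count over all libraries. Myeloid markers, 1 of 6 over 1 CPM in GFP low cells at 24 h and 0 in the other groups, summed to 2.13 to 2.42 CPM in GFP low libraries against 0.762 to 0.991 CPM in GFP high libraries at 24 h. At 48 h they summed to 0.873 to 1.63 against 0.812 to 1.02 CPM and at 72 h to 0.739 to 0.857 against 0.527 to 0.764 CPM. Of 3 tested, ITGAM was higher at 24 h (1.49 CPM in GFP low against 0.454 CPM in GFP high, log2 1.74, adjusted p 3.7e-06), and FCGR3A and S100A8 were at 0. Markers of plasmacytoid dendritic cells, which also make JCHAIN, summed to at most 0.23 CPM, with IL3RA and LAMP5 at 0. Epithelial markers, of cells that carry SDC1, summed to at most 0.13 CPM. The part of the T cell and myeloid markers in the members' results was not tested.

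SDC1, the heparan sulfate proteoglycan used to sort plasma cells, was almost undetected. It had 4 counts in all 18 libraries together, 2 of them in GFP low library 2 at 24 h and 2 in the unnumbered GFP high library at 48 h, and 0 in the other 16. A group total of 0 allows up to 0.029 CPM in GFP low cells at 72 h, the group with the fewest counts in genes. It did not pass the filter on low counts and was not tested. Of 10 genes of syndecans and heparan sulfate, 5 could be tested, and the heparan sulfate polymerase gene EXT1 was higher at 24 h (7.19 CPM in GFP low against 4.56 CPM in GFP high, log2 0.66) and 48 h (log2 0.46). NDST1, a sulfotransferase, was higher at 24 h (log2 0.25) and 72 h (log2 0.23), and EXT2 was lower at 72 h (log2 -0.13).

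TNFRSF17, the receptor for APRIL and BAFF on plasma cells, was near 1 CPM, with 23 to 73 counts per library. At 24 h it had 0.721, 0.852 and 0.719 CPM in GFP low libraries, against 1.32, 1.29 and 1.25 CPM in GFP high libraries, which is 1.69-fold lower (log2 -0.76 ± 0.22, adjusted p 0.0058). Under the 29 alternatives this call held, with a log2 fold change of -0.83 to -0.58. At 48 h it had 1.78, 1.23 and 1.28 CPM in GFP low libraries, against 0.883, 0.957 and 1.32 CPM in GFP high libraries, which overlap (log2 0.40 ± 0.21, 95% interval -0.05 to 0.85, adjusted p 0.17). At 72 h it had 0.831, 0.857 and 0.904 CPM in GFP low libraries, against 1.10, 0.724 and 0.606 CPM in GFP high libraries, which overlap too (log2 0.13 ± 0.23, 95% interval -0.38 to 0.64, adjusted p 0.75). Its fold change moved by 1.16 ± 0.30 between 24 and 48 h (adjusted p 0.0034) and by 0.89 ± 0.32 between 24 and 72 h (adjusted p 0.032). The first call was lost without the unnumbered library set (0.82, adjusted p 0.058). The second held under 16 of 29 alternatives and was lost in 6 of 18 refits with 1 library left out. It was also lost with DESeq2 (0.89, adjusted p 0.074), no filter (0.90, adjusted p 0.081) or the length trend removed (0.78, adjusted p 0.065).

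Of the BAFF and APRIL system, 7 of 8 genes could be tested. In GFP low cells 4 were higher and 2 lower at 24 h, 1 was higher at 48 h, and 1 was higher and 1 lower at 72 h. The shares of all tested genes were 29.3%, 10.6% and 12.9% higher and 28.5%, 13.2% and 13.5% lower. The other receptors, TNFRSF13C (113 against 101 CPM) and TNFRSF13B (24.7 against 22.0 CPM), were both higher in GFP low cells at 24 h by a log2 fold change of 0.17, opposite to TNFRSF17, and TNFRSF13B was lower at 72 h (log2 -0.25). TNFSF13, the gene of APRIL, was lower at 24 h (0.510 CPM in GFP low against 0.928 CPM in GFP high, log2 -0.86, adjusted p 0.015). TRAF3, an adaptor that restrains signalling by these receptors, was higher at all 3 times (log2 0.24, 0.16 and 0.15).

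Leaving the GFP low libraries at 24 h out of the fit, as happens where the 48 or 72 h comparison uses its own libraries only, changed none of the members' calls at 48 and 72 h. As the 24 h values of JCHAIN, MZB1 and TNFRSF17 rest on these libraries, no value of that comparison exists without them.

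The genes whose levels ran most like those of PRDM1, IRF4 and JCHAIN were taken by Pearson correlation of log2 CPM over 18 libraries, among 10086 protein-coding genes that averaged 1 CPM or more. The values are descriptions, since the libraries fall into 6 groups and share sets. AFF1, a subunit of the super elongation complex, ran most like PRDM1 (r = 0.995), with 120.8, 142.2 and 106.9 CPM in GFP low cells at 24, 48 and 72 h, against 52.8, 56.0 and 40.4 CPM in GFP high cells. It was followed by SERINC5 (r = 0.980), RNF19B (r = 0.980), CHST2 (r = 0.969) and ARID3B (r = 0.963). RASSF4 (r = 0.974), DOCK4 (r = 0.972), SLCO2B1 (r = 0.968), SYNPO (r = 0.966) and IFIT3 (r = 0.966) ran most like IRF4, and RASSF4 had 48.1, 22.9 and 14.3 CPM in GFP low cells against 23.3, 16.0 and 11.7 CPM in GFP high cells. LYPLA1 (r = 0.993), ATP5F1A (r = 0.989), GYG1 (r = 0.988), PRDX3 (r = 0.987) and PTMA (r = 0.986) ran most like JCHAIN. The 3 sets of 5 share no gene. With the library set removed, 3 of the 5 genes for PRDM1, 5 for IRF4 and 2 for JCHAIN were again among the top 5.

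**Figure D4:**
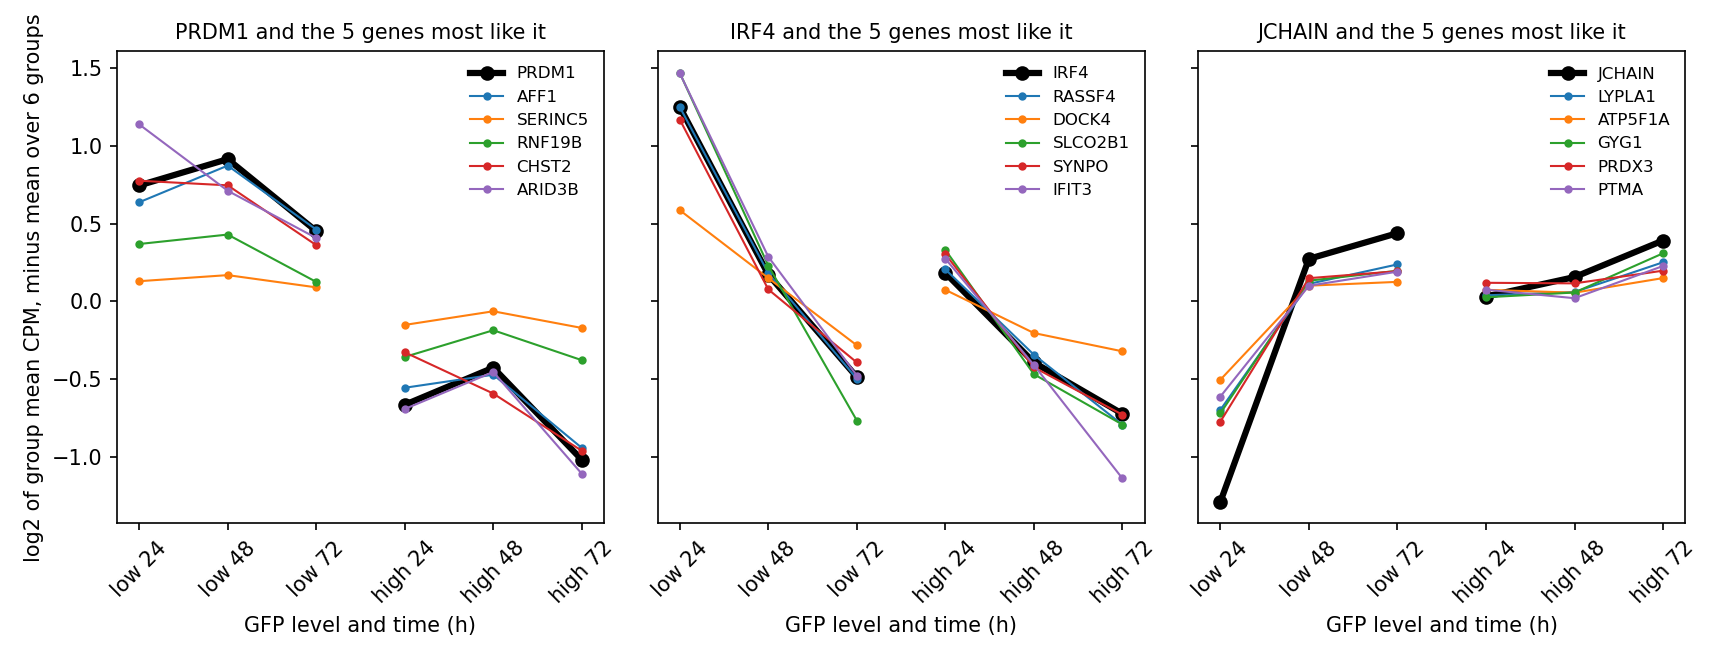
Log2 of the group mean CPM minus the mean over 6 groups (vertical axis) for PRDM1, IRF4 and JCHAIN, in black, and the 5 genes most like each, in colour, with GFP low left of GFP high and time in hours along the horizontal axis. PRDM1 and its 5 genes separate the GFP levels at every time, IRF4 is highest at 24 h at both GFP levels, and JCHAIN and its genes stand low in GFP low cells at 24 h.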

How the data were processed

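The deposited values are whole-number read counts for each gene, unnormalized, in 1 table of 18 columns laid out, per the file headers, as featureCounts writes them. The submitters' processing notes name FastQC, STAR, Subread, R 4.2.1 and the build hg38, with no roles; annotation release, strand setting and multimapping rule are stated in no source here. Per the labels, ribosomal RNA was removed from total RNA before library construction. Of 60710 lines, 3 broken ones (ANK2) were left out. Column names give the group and a library set (unnumbered, 1 or 2), not which labelled sample a column holds.

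Counts were fitted with edgeR 4.0.16 in R 4.3.3 as 6 group means over 18 libraries (TMM scaling, filterByExpr, 16474 genes, quasi-likelihood F tests, 12 residual degrees of freedom), after the same steps were tested on simulated data. The biological coefficient of variation was 3.49%, so small differences pass. Adjusted p are Benjamini-Hochberg over all tested genes in each test. SE were derived from the estimate and its F statistic, and 95% intervals use 12 degrees of freedom. TPM use the table's exon lengths. Between libraries of 1 group, the median chi-square of the counts was 1.45 to 3.10 times that from sampling alone, a ratio of squared differences. Libraries of the same set deviated together from their group means (45 pairs, r 0.10 to 0.31, median 0.24). So the sets, which come from the column names, pair the libraries. The median of -0.11 across sets follows from centring each group on its mean and is no separate support. The main fit leaves this pairing out. Results that the block changes are given beside the result or in the closing sections.

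Named genes are the 7 members, the 5 genes most like PRDM1, IRF4 and JCHAIN, and in each list up to 3 in each direction by adjusted p; 1 gene this rule names is not reported here. The members and lists were chosen with earlier results of these data known. Alternatives were RLE scaling, DESeq2 1.42.0, no filter, the block, the compared groups only, trends with exon length and GC removed, and each library or set left out.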

Additional observations from a re-analysis of the deposited data

Results flagged for a closer look

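In total, 10 values changed between times by a test of the difference itself in edgeR, each as the log2 fold change of GFP low over GFP high at the later time minus that at the earlier time. The same test called 43.5% of all tested genes between 48 and 24 h, 41.8% between 72 and 24 h and 9.02% between 72 and 48 h. For IRF4 the difference was -0.48 between 48 and 24 h (adjusted p 0.045) and -0.84 between 72 and 24 h (adjusted p 0.0019). For JCHAIN it was 1.44 between 48 and 24 h and 1.37 between 72 and 24 h. MZB1 moved by 0.54 and 0.55 over the same spans, and TNFRSF17 by 1.16 and 0.89. Under 29 alternatives, the IRF4 call between 48 and 24 h held in 9 and the TNFRSF17 call between 72 and 24 h in 16. CD38 moved by -0.20 between 48 and 24 h and by 0.28 between 72 and 48 h. No other change between times was called for these 6 genes by this fit, while the change from 24 to 72 h became called for CD38 under 3 alternatives and for PRDM1 under 2, those with trends of exon length, or length and GC, removed.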

How the results depend on the processing

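For the 6 tested members over 12 comparisons, 1979 alternative values kept direction and call, 74 lost the call, 19 gained it and 15 changed sign, with no call among those 15. Removal of both length and GC trends, of the length trend within the block, and of whole sets was added after seeing the data. The PRDM1 calls for GFP low against GFP high held under all 29 alternatives at each time, between log2 1.31 and 1.49. With the library set as replicate block, MZB1 at 48 h (-0.07) and 72 h (-0.05) and JCHAIN at 72 h (0.05) became called, so that 2 members were lower at 48 h, and 2 higher and 2 lower at 72 h. The counts were the same with length and GC trends removed, and at 48 h (2 lower) and 72 h (2 higher) with the length trend removed within the block; the block changed no other member call between GFP levels except JCHAIN for 72 against 48 h (1 lower). The block gave 3331 genes for the change of the GFP low over GFP high difference from 48 to 72 h, where length and GC removal gave 2405 and length removal within the block 3207, all against 1486; it gave 5394 against 3388 for GFP high at 48 against 24 h. Of the 2 members called lower in the difference between 48 and 24 h, 1 was called with RLE scaling and with DESeq2, and 0 with no filter or with a length trend, a length and GC trend, or a length trend within the block removed. That difference for PRDM1 turned to 0.036, 0.023 and 0.040 under these last 3. Also, MZB1 for 72 against 48 h was -0.00040 with no filter, and TNFRSF17 in GFP low at 72 against 24 h was -0.015 with length and GC removed. The causes were not tested.

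Leaving out 1 library or 1 whole set gave 2285 to 3981 genes at 48 h, 2562 to 4418 at 72 h, 382 to 1529 for 72 against 48 h, 2491 to 4433 for GFP low at 72 against 48 h, and for GFP high 1672 to 3435 at 48 against 24 h, 2668 to 4669 at 72 against 48 h and 3007 to 4823 at 72 against 24 h. The low ends came without the unnumbered set, which leaves 2 libraries a group. MZB1 in GFP high at 48 against 24 h ranged from -0.030 to 0.052, IRF4 at 48 h from 0.37 to 0.77, TNFRSF17 at 72 h from -0.11 to 0.42, and for 72 against 48 h MZB1 from -0.032 to 0.054 and TNFRSF17 from -0.83 to 0.30. Members called lower between 48 and 24 h numbered 0 to 2, between 72 and 48 h 0 to 1 in either direction, and 0 to 1 in GFP high at 48 against 24 h. IRF4 and TNFRSF17, with the fewest counts, had the widest intervals of the members.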
